A study of Mus musculus with 19 samples.

Results

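The conjugation enzymes of detoxification were taken as the rows of the deposited count table whose symbol is Gsta, Gstm, Gstp, Gstt, Gsto, Gstk, Mgst, Ugt1, Ugt2, Ugt3 or Sult followed by digits or letters, without symbols ending in -ps. The rule found 64 of 35976 rows. It uses symbols and no measured values, although the enzymes were picked as a subject with earlier results of these data known. RNA was sequenced from whole liver of 19 mice, 7 labelled WT, 6 Het and 6 Homo at Pkd1, the gene of polycystin-1. All 3 genotypes, the WT controls included, carried AAV-Cre, an adeno-associated virus with Cre recombinase, and all were on Western Diet + CCl4 for 3 months, a regimen of rich diet and liver toxin that the labels call a NASH model. Every group is therefore a diseased liver, and no untreated liver is compared here. The design text calls the mice littermates. It does not state which part of Pkd1 is deleted, which promoter drives Cre, or the sex, age or batch of a mouse. Per its title, the series concerns clones of Pkd1 mutant cells in diseased liver, and each library holds whole tissue, so the share of mutant cells in it is not known here.

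Conjugation is the step of detoxification that attaches a polar group to a drug, toxin, bilirubin, bile acid or hormone so that the product can leave the cell. Glutathione transferases (Gst and the membrane-bound Mgst) add the tripeptide glutathione to reactive electrophiles, UDP-glucuronosyltransferases (Ugt) add a sugar from a UDP donor, usually glucuronic acid, and sulfotransferases (Sult) add sulfate from the donor PAPS. Hepatocytes are the main site of all 3 reactions. Many of these genes are induced through NRF2, CAR, PXR or the Ah receptor, and several differ between male and female mouse liver.

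The libraries held between 25.8 and 42.1 M counts each, M standing for 1e+06. CPM are counts per 1e+06 counts of the library after scaling, and CPM per kb divides by the exon length of a gene, which allows levels of different genes to be compared. Pkd1 itself averaged 405.5 CPM in WT, 390 in Het and 357 in Homo and did not pass in any comparison (edgeR, smallest adjusted p 0.315). The row covers every exon of Pkd1, also any that remain after recombination, so its counts do not check the genotype labels. The 9 hepatocyte identity markers with a row, Alb and Ttr among them, summed to between 23450 and 29560 CPM per library. Reads from all 4 Y-linked genes looked at were present in all 19 libraries. Of the 11 tested bile duct markers, 4 were higher in Homo than in WT (Krt7, Krt19, Tspan8 and Muc1, edgeR), where 0.48% of all tested rows were called. The list summed to between 182.6 and 276.2 CPM in WT, 178 and 266.4 in Het and 257.7 and 318.1 in Homo. The summed markers of macrophages, stellate cells, endothelium, lymphocytes and neutrophils overlapped between the genotypes and had 0 called genes (edgeR). In bulk tissue, fewer cells of a type and less RNA per cell cannot be told apart. P-values measure the spread between mice of these labels, which differ by a number in the title only.

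Of the 64 rows, 44 passed the filter on low counts and were tested, and the other 20 had a mean under 1 CPM (at most 0.195). Together the 64 rows held 0.504% of scaled counts, between 0.446% and 0.567% in a library, with the reads that the Ugt1a rows share taken once. Glutathione enzymes made up 0.271% of these counts, sulfate enzymes 0.135% and glucuronide enzymes 0.0982%. Levels were uneven within each family, and a single gene supplied 99.8% of the summed CPM of the 3 Mgst rows (Mgst1), 99.4% of the Sult rows outside the Sult1 family (Sult2a8), 71.4% of the Sult1 rows (Sult1a1) and 46.7% of the 20 cytosolic Gst rows (Gsta3). Per length, the order from the top was Mgst1 at 492 CPM per kb, Sult2a8 at 354, Gstm1 at 353, Gsta3 at 185, Ugt1a1 at 91.2, Sult1a1 at 83.1 and Gstp1 at 74.2. The Ugt1a1 value includes exons that all 8 Ugt1a rows share, and on its own exons Ugt1a1 was at 71.4 CPM per kb, below Sult1a1 and Gstp1. Sult2a8 and Gstm1 are neighbours in this order whose libraries overlap. The annotated exons of Gsta3 add to 4344 bases and those of Sult2a8 to 3284, against 1177 for Gsta2 and 1266 for Gsta4. The order therefore rests in part on the annotation. All 19 libraries had 0 counts for 4 rows (Sult1c1, Sult2a4, Sult2a5 and Sult3a2). Sult2a1 and Sult3a1, sulfotransferases known from female mouse liver, had 2 and 12 counts over the 19 libraries together.

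No conjugation enzyme passed in any genotype comparison. By edgeR's quasi-likelihood test with Benjamini-Hochberg adjustment over all 16463 tested rows, 0 of 44 members passed in Homo against WT, where 0.48% of all tested rows did. In Het against WT 0 of 44 passed, against 0.0243% of all rows, and in Homo against Het 0 of 44, against 0.182%. Without adjustment, p was under 0.05 for 6 members (13.6%, all rows 12.9%) in Homo against WT, 6 (13.6%, all rows 8.84%) in Het against WT and 2 (4.55%, all rows 6.29%) in Homo against Het. DESeq2 called 1 member in Homo against WT (Ugt2b34), 0 in Het against WT and 1 in Homo against Het (Gstp1), and limma-voom called 0 in each. The shares of all rows given here are edgeR's, so the counts of the other tools have no share beside them. By edgeR without adjustment, the shares of members in Homo against WT and in Homo against Het lie near those of all rows.

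The direction of the changes that did not pass was uneven. In Homo against WT 14 of 44 members lay above 0, with a median log2 fold change of -0.05 (all tested rows 0.002). In Het against WT it was 23 of 44, with a median of 0.004 (all rows -0.004). In Homo against Het it was 7 of 44, with a median of -0.08 (all rows -0.001). Of all 16463 tested rows, 8280, 8083 and 8181 lay above 0 in the same order of comparisons. The 8 Ugt1a rows count the same reads repeatedly, as their common exons show, and all 8 lay below 0 in each comparison. The first and second comparisons share the WT libraries and the last shares its libraries with both, so the 3 counts are not independent. The 95% interval lay within a 2-fold change either way for 38, 39 and 39 of the 44 members in Homo against WT, Het against WT and Homo against Het. Over all 16463 tested rows these counts were 13241, 13388 and 13228. Within a 1.5-fold change lay 30, 32 and 30 members, and 9846, 10081 and 10013 of all rows. The members within 1.5-fold include all 8 Ugt1a rows in each comparison.

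**Figure D1:**
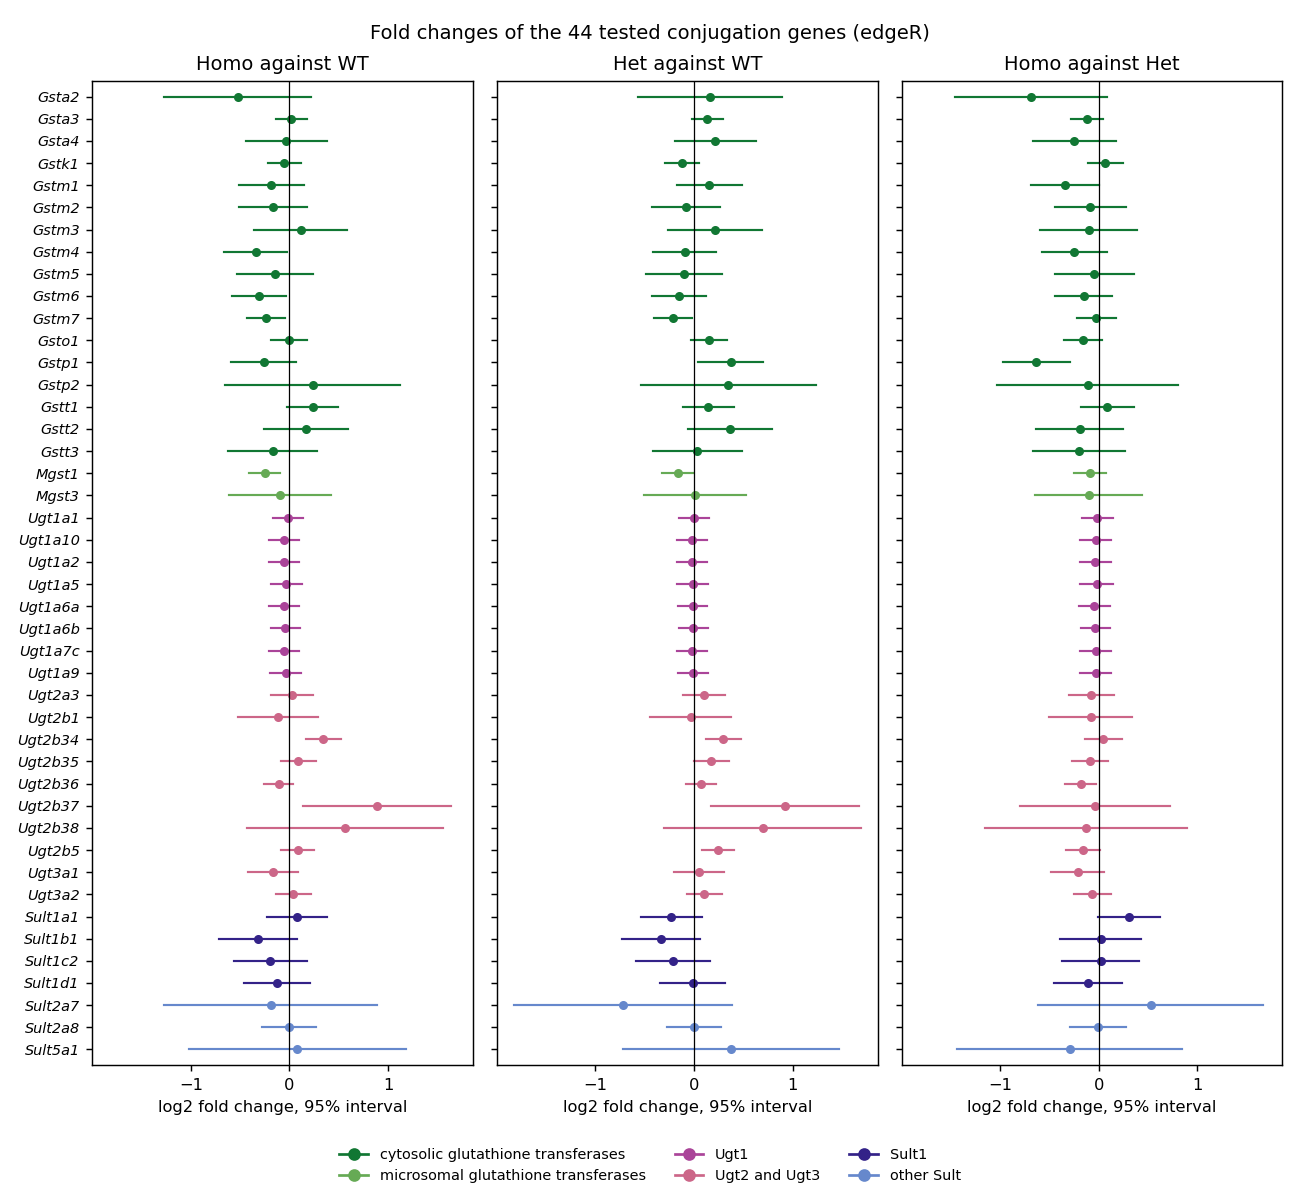
Log2 fold change (x axis) of each of the 44 tested conjugation genes (rows, coloured by family) in 3 comparisons (panels), with points for the edgeR estimate and lines for its 95% interval. The widest intervals belong to genes of low or variable level such as Gsta2, Ugt2b38, Sult2a7 and Sult5a1, while those of the 8 Ugt1a rows and of Gsta3 are narrow and span 0.

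Among the cytosolic glutathione transferases, Gstp1 was the 1 member of all 44 whose groups did not overlap in a comparison, that of Homo with Het. In Homo against WT and in Het against WT 0 of 44 members had groups apart, against 0.911% and 0.194% of all tested rows. Gstp1, the pi-class enzyme, which is also a marker of preneoplastic foci in rodent liver, had a lowest, median and highest value of 79.5, 118 and 143 CPM in WT, 126, 135 and 186 CPM in Het and 60.1, 97.1 and 124 CPM in Homo. Every Het mouse lay above every Homo mouse, while WT mice overlapped with both. Groups that do not overlap between Homo and Het were found for 0.686% of all tested rows (0.176% with Homo lower). The log2 fold change of Homo against Het was -0.63 ± 0.165 (SE; 95% interval -0.98 to -0.29), with an adjusted p of 0.195 by edgeR and 0.0322 by DESeq2, so the call depends on the tool. Against WT, Het was at 0.37 ± 0.158 (adjusted p = 0.525) and Homo at -0.26 ± 0.159 (adjusted p = 0.508). Het thus had the highest mean, 143 ± 22.2 CPM (SD, n = 6), against 110 ± 23.8 in WT (n = 7) and 92.1 ± 23 in Homo (n = 6), an order that does not follow the number of mutant alleles. The near copy Gstp2 shares 33.7% of the 50-base words of Gstp1 and was far lower, at 0.119 to 0.927 CPM over all mice.

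Gsta3, an alpha-class enzyme that in mice conjugates the aflatoxin epoxide, was the most even of the abundant Gst genes. It ranged from 696 to 859 CPM in WT (median 784), 814 to 915 in Het (844) and 658 to 897 in Homo (821). All 3 ranges overlapped, and Homo against WT was at 0.02 ± 0.075 (95% interval -0.14 to 0.17). Gsta4, which detoxifies the lipid peroxidation product 4-hydroxynonenal, averaged 8.09 ± 1.15 CPM in WT, 9.40 ± 4.27 in Het and 7.93 ± 1.33 in Homo (SD). Gsta1 was not tested (mean 0.195 CPM), and 90.5% of its 50-base words occur in other genes, so its counts and those of Gsta2 (49.8%) are uncertain. Gstt1, a theta-class enzyme, lay at 0.23 ± 0.123 in Homo against WT (adjusted p = 0.436).

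In the mu class 6 of 7 members (all but Gstm3) lay below 0 in Homo against WT and 0 passed. Gstm7 ran from 41.3 to 52.7 CPM in WT (median 44.2), 35.3 to 47.1 in Het (38.2) and 35.6 to 50.4 in Homo (37.0). In Homo 5 mice lay below every WT mouse and replicate 1, at 50.4 CPM, lay among them. Its log2 fold change was -0.24 ± 0.092 in Homo against WT (adjusted p = 0.276) and -0.22 ± 0.092 in Het against WT (adjusted p = 0.524). Homo against WT was at -0.05 among mice 8 to 13 alone (adjusted p = 0.977), where Homo replicate 1 is 1 of the 2 Homo mice, and at -0.33 without that mouse (adjusted p = 0.070). Gstm6 was at -0.31 ± 0.132 in Homo against WT (adjusted p = 0.330), with WT between 39.1 and 64.4 CPM and Homo between 32.5 and 44.9. The 3 highest WT values were those of mice 1 to 3, and Gstm6 was at -0.13 without them (adjusted p = 0.878) and at -0.0082 among mice 8 to 13 alone (adjusted p = 0.997). Gstm1, the main mu-class enzyme of mouse liver, ran from 407 to 657 CPM in WT (median 498), 363 to 958 in Het (543) and 413 to 499 in Homo (467). The top value belonged to Het replicate 1, and the lowest of all mice was also a Het mouse. Homo against Het was at -0.34 ± 0.165 (adjusted p = 0.809), and at -0.14 without Het replicate 1. Homo against WT was at -0.18 ± 0.159 (adjusted p = 0.665), and at 0.01 without mice 1 to 3, which are all WT.

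The microsomal enzyme Mgst1, an integral protein of the endoplasmic reticulum and outer mitochondrial membrane, had the most CPM per kb of annotated exons among members. WT mice had 908, 1077 and 1349 CPM as lowest, median and highest value, Het mice 828, 980 and 1097, and Homo mice 890, 898 and 951. The Homo mice sat in a narrow band at the low end of WT, with 4 of the 6 below every WT mouse. Homo against WT was at -0.25 ± 0.075 (95% interval -0.41 to -0.09; adjusted p = 0.157) and Het against WT at -0.17 ± 0.075 (adjusted p = 0.544). Mgst3 was low, between 1.49 and 4.37 CPM in all mice, and Mgst2 had 5 counts in all.

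Promoter sequences are shown for 4 genes: Gsta3 and Mgst1, the abundant enzymes that hold a match to the core of the antioxidant response element, and Gstp1 and Ugt2b34, whose p was the smallest among members in Homo against Het and in Homo against WT. The element is the site through which NRF2 acts on many Gst genes. The letters searched were TGACNNNGC on both strands in windows from 250 bases before to 50 bases after the start in RefSeq's annotation of GRCm38.p6. Other forms of the element were not searched, so a window without a match, that of Gstp1 included, can still hold one. A match was held by 12.4% of all 32851 windows and by 4 of the 67 windows of members (5.97%). These belong to 4 of the 56 member genes with a window, namely Gsta3, Gstm5, Gstm7 and Mgst1. Printed 5′ to 3′ on the gene's strand are the 250 bases before the start, with matches in capitals.
Gsta3, chr1:21240335-21240584, plus strand: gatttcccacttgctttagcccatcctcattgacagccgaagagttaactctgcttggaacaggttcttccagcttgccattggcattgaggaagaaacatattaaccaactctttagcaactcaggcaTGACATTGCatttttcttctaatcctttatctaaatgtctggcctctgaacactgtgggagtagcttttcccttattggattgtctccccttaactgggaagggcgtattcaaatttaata
Mgst1, chr6:138140277-138140526, plus strand: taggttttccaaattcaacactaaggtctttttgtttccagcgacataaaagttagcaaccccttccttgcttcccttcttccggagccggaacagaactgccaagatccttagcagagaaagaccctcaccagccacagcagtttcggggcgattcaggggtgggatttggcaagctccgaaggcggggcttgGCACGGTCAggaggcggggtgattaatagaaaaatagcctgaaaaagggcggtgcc
Gstp1, chr19:4037913-4038162, minus strand: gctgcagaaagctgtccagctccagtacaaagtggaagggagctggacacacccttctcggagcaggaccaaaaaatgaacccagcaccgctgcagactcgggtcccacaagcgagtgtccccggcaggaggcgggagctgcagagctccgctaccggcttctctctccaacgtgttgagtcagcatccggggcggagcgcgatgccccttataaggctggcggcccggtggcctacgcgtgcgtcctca
Ugt2b34, chr5:86906938-86907187, minus strand: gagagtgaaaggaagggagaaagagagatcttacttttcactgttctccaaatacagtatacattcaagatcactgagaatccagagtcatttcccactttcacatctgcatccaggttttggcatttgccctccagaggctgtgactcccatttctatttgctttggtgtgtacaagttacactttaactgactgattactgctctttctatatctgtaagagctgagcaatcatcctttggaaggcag
The Gsta3 match reads in the direction of the gene and the Mgst1 match is on the other strand. A match of letters is a description of these windows and shows no binding in these livers. Among the genes with a match, Homo against WT was at 0.02 ± 0.075 for Gsta3, -0.25 ± 0.075 for Mgst1, -0.24 ± 0.092 for Gstm7 and -0.15 ± 0.185 for Gstm5. A part of the element in these values was not tested.

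**Figure D2:**
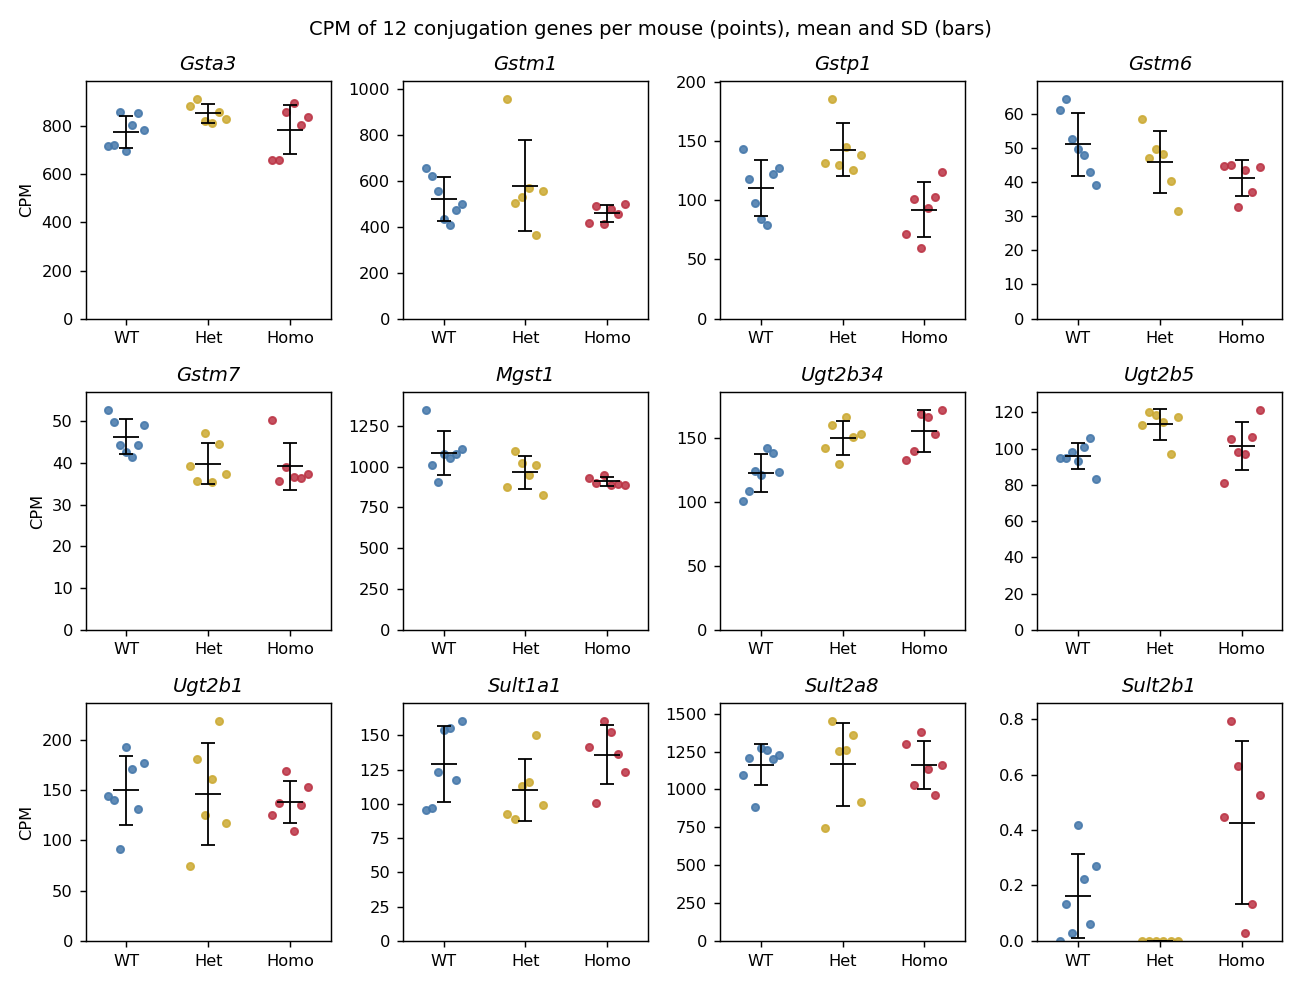
CPM (y axis, from 0) of 12 conjugation genes in each mouse by genotype (x axis, 7 WT, 6 Het, 6 Homo), with points for mice, a long dash for the mean and bars for the SD. For Gstp1 the 6 Het mice, from 126 CPM, lie above the 6 Homo mice, up to 124 CPM, whereas the groups of the other tested genes overlap, and Sult2b1 is at 0 in all 6 Het mice.

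The Ugt1 family is 1 gene on chromosome 1 with alternative first exons joined to common ones. In the GENCODE release 21 transcripts (GRCm38) all 8 Ugt1a rows share 4 exons of 1311 bases in all, chr1:88215044-88218997, which encode the part that binds the UDP sugar. Before these, the 1 transcript picked for each row has own exons of 879 to 986 bases, which encode the part that binds the substrate. Over all transcripts, the annotated exons add to 4312 bases for Ugt1a6a and 4219 for Ugt1a7c, against 2224 for Ugt1a1. The sequences at the junction show what sets the rows apart, and are printed as 30 bases of the own exon in lower case and the first 30 shared bases in capitals.
Ugt1a1: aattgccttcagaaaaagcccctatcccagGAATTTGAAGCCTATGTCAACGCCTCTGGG
Ugt1a5: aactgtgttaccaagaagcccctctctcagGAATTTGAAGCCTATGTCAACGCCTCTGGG
Ugt1a2: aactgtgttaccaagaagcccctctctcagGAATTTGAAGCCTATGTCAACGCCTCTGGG
Ugt1a6a: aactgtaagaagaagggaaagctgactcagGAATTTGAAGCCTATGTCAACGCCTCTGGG
Ugt1a6b: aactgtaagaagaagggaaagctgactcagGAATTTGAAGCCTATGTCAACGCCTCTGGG
Ugt1a9: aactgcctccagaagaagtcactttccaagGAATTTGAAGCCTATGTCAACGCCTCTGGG
The shared side is the same in each. The own ends of Ugt1a5 and Ugt1a2 are identical over these 30 bases, as are those of Ugt1a6a and Ugt1a6b, so short reads there cannot be given to 1 of them.

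The counts followed this structure. Within a library, no row other than Ugt1a1 exceeded 1.11 times the lowest of the 8 rows, and Ugt1a1 was 1.36 to 1.55 times the lowest. The lowest row was Ugt1a10 in 18 of 19 libraries, with a mean of 138 CPM over libraries for the lowest row. Spread over the shared exons this is 105 CPM per kb. The excess of each row over the lowest, per kb of its own exons in the picked transcript, summed to 101 CPM per kb. On these lengths own and shared exons had nearly the same density. If reads were counted over the longer annotated exons of Ugt1a6a and Ugt1a7c, the values per kb of these rows would be lower. How the authors counted reads in shared exons is not given in the sources used here, and the 8 rows are not treated as separate measurements. Taking the excess as own signal, Ugt1a1, the enzyme that conjugates bilirubin, made up 70.4% of the own-exon signal. The excess per kb of own exons was 71.4 CPM for Ugt1a1, 10.4 for Ugt1a5, 7.84 for Ugt1a6b, 6.88 for Ugt1a6a and 3.45 for Ugt1a9, and under 1 for Ugt1a2, Ugt1a7c and Ugt1a10.

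The own signal of Ugt1a1 was 63.9 ± 10.2 CPM in 7 WT mice, 65.3 ± 3.07 in 6 Het mice and 66.5 ± 7.54 in 6 Homo mice (SD), over a range of 45.3 to 79.1 CPM. The differences of 2.66 CPM (Homo against WT), 1.44 (Het against WT) and 1.22 (Homo against Het) were smaller than the spread between mice, with exact two-sided permutation p of 0.611, 0.734 and 0.740 and an adjusted p of 0.740 for each over the 3 comparisons. The row as deposited ran from 173 to 235 CPM in WT (median 202), 195 to 224 in Het (200) and 167 to 237 in Homo (200), with a log2 fold change of -0.02 ± 0.073 in Homo against WT (95% interval -0.17 to 0.13). The 8 rows were among the least variable in the liver: their SD of log2 CPM lay between the percentiles 7.71 and 10.9 of all tested rows.

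**Figure D3:**
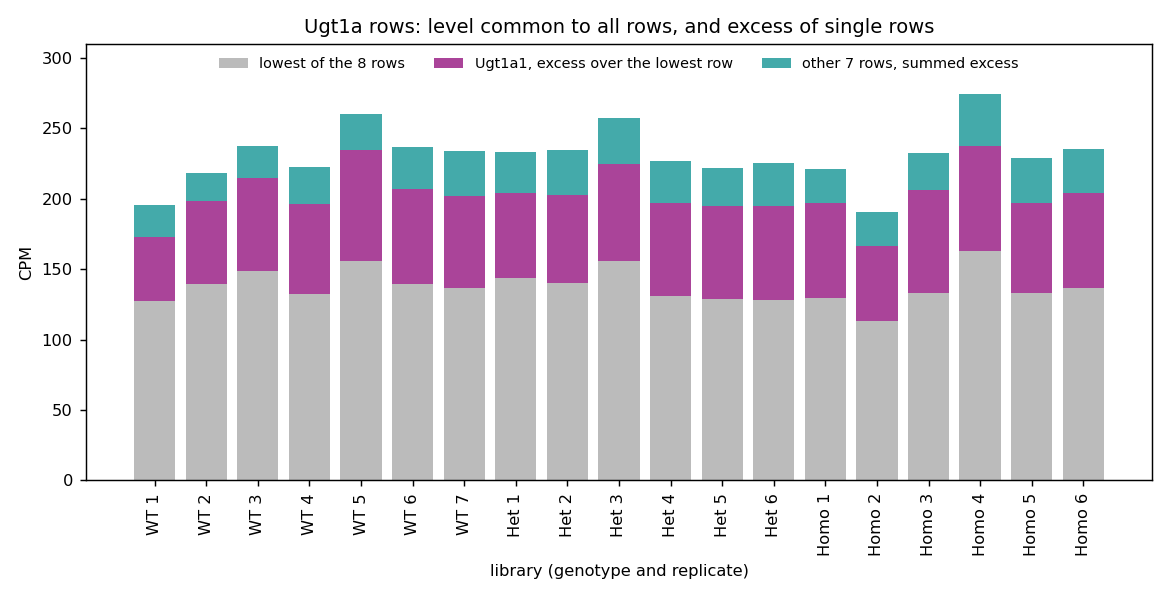
CPM (y axis, from 0) in each library (x axis) of the lowest of the 8 Ugt1a rows (grey), of the excess of Ugt1a1 over it (purple) and of the summed excess of the other 7 rows (teal). The grey part ranges from 113 to 163 CPM and the Ugt1a1 part from 45.3 to 79.1 CPM, with genotypes overlapping in both.

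Ugt2 enzymes conjugate steroids, bile acids and drugs, and 10 of the 12 Ugt2 and Ugt3 rows were tested. Ugt2b34 had the smallest p of all members in both comparisons with WT. Its lowest, median and highest values were 100.2, 123 and 142 CPM in WT, 129, 152 and 166 CPM in Het and 132, 159 and 172 CPM in Homo. Het and Homo mice were alike and mostly above WT, but the highest WT mouse lay within both. Homo against WT was at 0.34 ± 0.085 (95% interval 0.16 to 0.52), with an adjusted p of 0.083 by edgeR and 0.0139 by DESeq2. Het against WT was at 0.29 ± 0.085 (adjusted p = 0.385). Both comparisons use the same WT libraries, and the lowest of these were mice 1 and 2. Homo against WT was at 0.24 without mice 1 to 3 (adjusted p = 0.456) and at 0.22 with the number of the mouse in the fit (adjusted p = 0.428). Among mice 8 to 13 alone, which hold 4 WT and 2 Homo mice, it was at 0.04 (adjusted p = 0.969).

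Ugt2b5 ran from 83.4 to 106 CPM in WT (median 95), 96.8 to 120 in Het (116) and 81.3 to 121 in Homo (101), with the highest median in Het. Het against WT was at 0.24 ± 0.078 (adjusted p = 0.420) and Homo against Het at -0.16 ± 0.081 (adjusted p = 0.822). Ugt2b5 shares 34.8% of its 50-base words with Ugt2b38, at 0.205 to 4.17 CPM, and 41.7% with other genes in all. Ugt2b36 was at -0.18 ± 0.075 in Homo against Het (adjusted p = 0.721), with Het at 101 ± 7.20 CPM and Homo at 89.2 ± 9.61. Ugt2b37 had the largest fold among the members of small p and the lowest level. It ran from 0.176 to 0.417 CPM in WT, 0.194 to 0.663 in Het and 0.215 to 1.02 in Homo, with log2 fold changes of 0.89 ± 0.358 (Homo against WT, adjusted p = 0.305) and 0.92 ± 0.359 (Het against WT, adjusted p = 0.507). Ugt2b1, one of the most abundant Ugt2 genes at 56.4 CPM per kb, ranged from 74.8 to 219 CPM, both within Het. Ugt3a2, of a family that uses UDP sugars other than glucuronic acid, was even at 143 ± 14.1 CPM in WT, 154 ± 13.8 in Het and 147 ± 19.2 in Homo.

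Sult1 enzymes sulfate phenols and catechols. Sult1a1, the main phenol sulfotransferase, ran from 95.4 to 160 CPM in WT (median 123), 88.6 to 151 in Het (106) and 101 to 161 in Homo (139). All 3 groups spanned most of the range. Homo against Het was at 0.30 ± 0.151 (adjusted p = 0.810) and Het against WT at -0.23 ± 0.146 (adjusted p = 0.680). Sult1d1, which acts on catecholamines in rodents, averaged 31.1, 30.8 and 28.5 CPM in WT, Het and Homo, and Sult1b1, which acts on thyroid hormones and phenols, 20.7, 16.4 and 16.6 CPM. Neither passed in any comparison (adjusted p of at least 0.497). Sult1e1, the estrogen sulfotransferase, was not tested at 0.158 CPM.

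Sult2a8, which sulfates bile acids in mouse liver, was the most abundant sulfotransferase and had nearly the same mean in each genotype: 1164 ± 136 CPM over 7 WT mice, 1164 ± 275 over 6 Het mice and 1161 ± 157 over 6 Homo mice (SD). The lowest, median and highest values were 884, 1207 and 1273 in WT, 743, 1259 and 1452 in Het and 964, 1148 and 1379 in Homo. The 95% interval of Homo against WT was -0.28 to 0.27 on the log2 scale. Sult2a7 and Sult5a1 were among the most variable members, with an SD of log2 CPM of 0.872 and 1.09 (percentiles 91.0 and 94.3 of all tested rows), against a median of 0.261 over the 44. Sult5a1 ran from 0.762 to 10.9 CPM in WT, 2.79 to 18.2 in Het and 2.72 to 14.6 in Homo. Other members of high spread were Ugt2b38 (0.931), Gsta2 (0.689) and Gstp2 (0.633), all at low levels.

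Sult2b1, which sulfates cholesterol and is known from skin, was counted in every Homo mouse and in no Het mouse. It was left out by the filter and is named after its values were seen. WT libraries had 0, 5, 1, 15, 8, 2 and 9 counts, the 6 Het libraries 0 each, and Homo libraries 15, 28, 20, 1, 5 and 22. WT lay between the other genotypes, with 1 mouse at 0. Against a floor of 3 counts over the Het group (0.0152 CPM), Sult2b1 was at least 28.0-fold higher in Homo and at least 10.6-fold higher in WT, counting error only. Exact two-sided permutation p for the difference of mean CPM was 0.00216 for Homo against Het, 0.0128 for Het against WT and 0.0594 for Homo against WT, for 1 gene picked among 64. In the fit without a filter its adjusted p for Homo against Het was 0.0581 by edgeR and 0.000192 by DESeq2, and for Het against WT 0.475 and 0.0267. Without mice 1 to 3 the row passed the filter and had an adjusted p of 0.0477 in Homo against Het. It also passed the filter in 8 of the fits that left out 1 library, and was called in 1 of these, without Homo replicate 4 (adjusted p = 0.0378), with adjusted p from 0.0551 to 0.119 in the others. A row that passes a filter only through the groups where it is present had to differ, and the gene was picked by these same values. The p-values and folds of Sult2b1 therefore describe its counts and are no support for a difference. Of the 11 tested bile duct markers, 4 were called higher in Homo than in Het (Krt7, Krt19, Tspan8 and Epcam, edgeR), against 0.182% of all tested rows. In Het against WT 0 were called, against 0.0243% of all rows. There 3 of the 11 lay above 0, with a median log2 fold change of -0.29. Krt19 ran from 0.364 to 1.17 CPM in Het, 0.293 to 2.99 in WT and 3.36 to 10.1 in Homo, and Krt7 from 0.21 to 0.504, 0.0755 to 0.584 and 1.03 to 4.19 CPM. Sox9, another duct marker, did not pass in any comparison, at 4.48 ± 1.34 CPM in Het, 5.79 ± 1.75 in WT and 5.32 ± 1.49 in Homo (SD). In Het against WT 1 of the 11, Cftr, had an unadjusted p under 0.05, at a log2 fold change of -2.04 (adjusted p = 0.420). In Homo replicates 1 to 6, Sult2b1 was at 0.447, 0.793, 0.631, 0.029, 0.134 and 0.527 CPM. Krt19 was at 7.39, 10.1, 10, 5.88, 3.36 and 3.76 CPM in the same order. The part of duct cells in the Sult2b1 counts was not tested. Sult2b1 (chr7:45729983-45784669, minus strand, GRCm38) overlaps Gm31597 and Lmtk3, and without a stated strand setting reads of overlapping genes cannot be told apart.

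One Het library stood apart in several members. Het replicate 1 was the highest of the 19 libraries in 7 tested members and the lowest in 5 of 44, where it was the highest in 6.24% and the lowest in 6.06% of all tested rows. Its highest members were all glutathione transferases: Gstm1 at 958 CPM (next 657), Gsta4 at 17.7 (next 10.2), Gstm3 at 25.2 (next 16.1), Gstt2 at 61.1 (next 35.5), Gstt3 at 10.4 (next 8.65), Gsta2 at 7.63 (next 6.00) and Gstm4 at 51.0 (next 50.1). Its lowest were Sult2a8 at 743 CPM, Ugt2b1 at 74.8, Sult1b1 at 10.9, Gstk1 at 22.9 and Ugt2b35 at 44.2. In the same library the male-biased liver genes summed to 822 CPM, against 987 to 2222 in the others, and it was the lowest of the 19 libraries in 2 of these 12 genes. The 14 female-biased genes summed to 429 CPM, against 55.8 to 298 in the others, but Cyp4a14 alone gave 350.5 CPM of this, and it was the 1 gene of the list that was highest there. The part of these in the member values was not tested. These members were picked for this library after their values were seen. Homo replicate 4 was highest in 11 members (6.28% of all tested rows) and Homo replicate 2 lowest in 10 (4.06% of all tested rows), and in both 8 of these are the Ugt1a rows, which share reads.

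**Figure D4:**
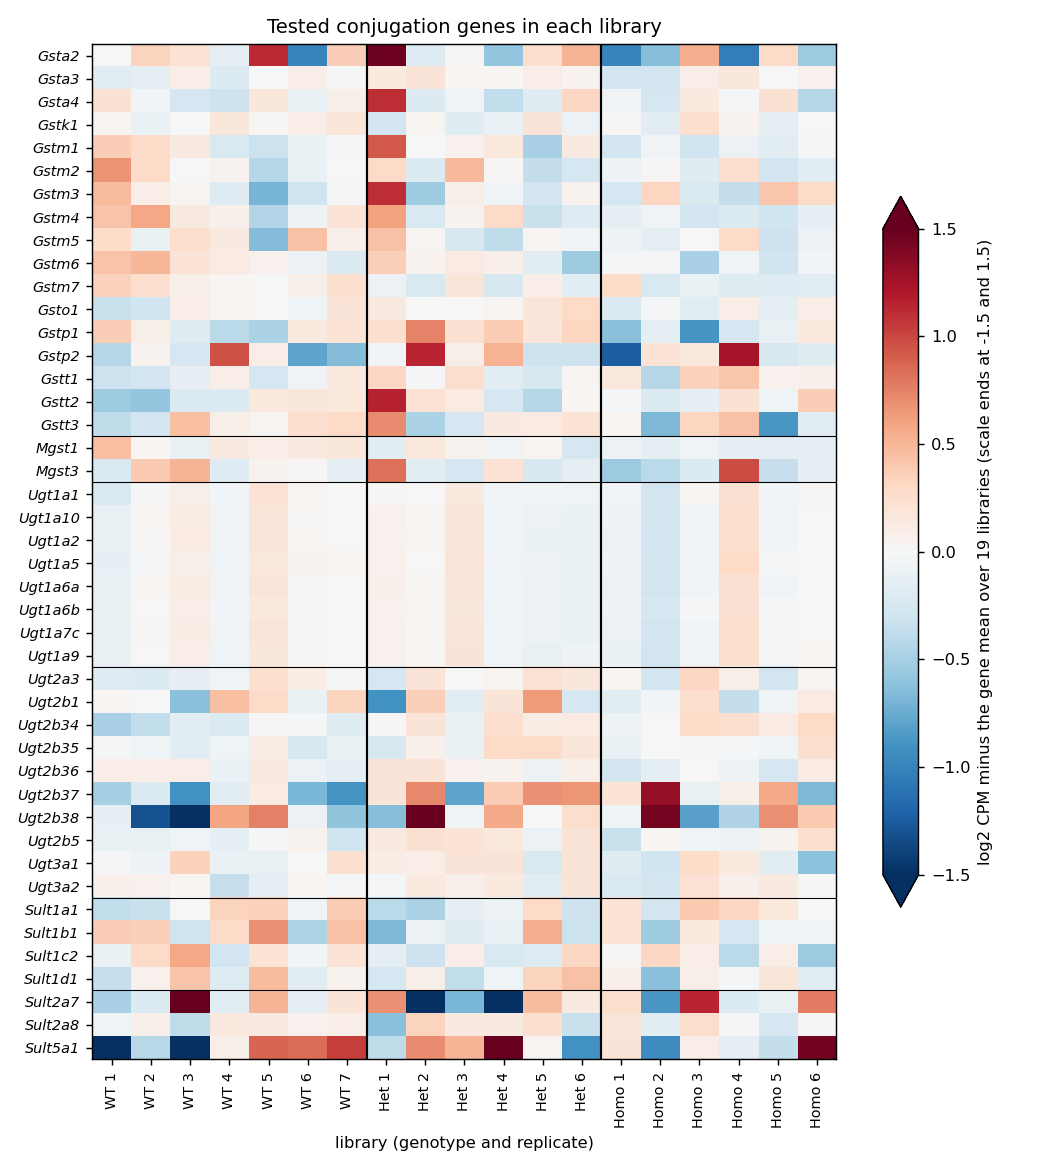
Log2 CPM of the 44 tested conjugation genes (rows, grouped by family) in each library (columns, in order of genotype and replicate), minus the gene's mean over the 19 libraries, on a colour scale that ends at -1.5 and 1.5. Het replicate 1 is red in Gsta2, Gsta4, Gstm1, Gstm3 and Gstt2 and blue in Ugt2b1 and Sult2a8, and the 8 Ugt1a rows change together.

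The titles end in a number, here called the mouse number, whose meaning is not stated. Mice 1 to 3 are all WT, so number and genotype overlap in part. In a fit with genotype and number together, 1 of 44 members passed for the number (edgeR), where 6.40% of all tested rows did. That member was Gstm6, at -0.037 ± 0.0071 log2 units per number (adjusted p = 0.00431). Without adjustment, p was under 0.05 for 10 members (22.7%, all rows 20.3%). Gstm2, Gstm4 and Gstm1 had slopes of -0.036, -0.032 and -0.033 (adjusted p = 0.0581, 0.0671 and 0.0809), and Sult1a1 and Ugt2b34 had slopes of 0.032 and 0.018 (adjusted p = 0.0675 and 0.0678).

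Within WT, where genotype is constant, mice 1 to 3 had 52.6 to 64.4 CPM of Gstm6 and the other 4 mice 39.1 to 49.6. Gstm1 was at 558 to 657 CPM in the former and 407 to 498 in the latter. These groups did not overlap for 7 of 44 members (15.9%), against 17.6% of all tested rows. The Homo against WT value of Gstm6 went from -0.31 to -0.05 with the number as a covariate. Mice 1 to 3 include no Het or Homo mouse, so genotypes cannot be compared at these numbers. Number and genotype overlap in part, and their parts in the genotype differences cannot be fully told apart.

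**Figure D5:**
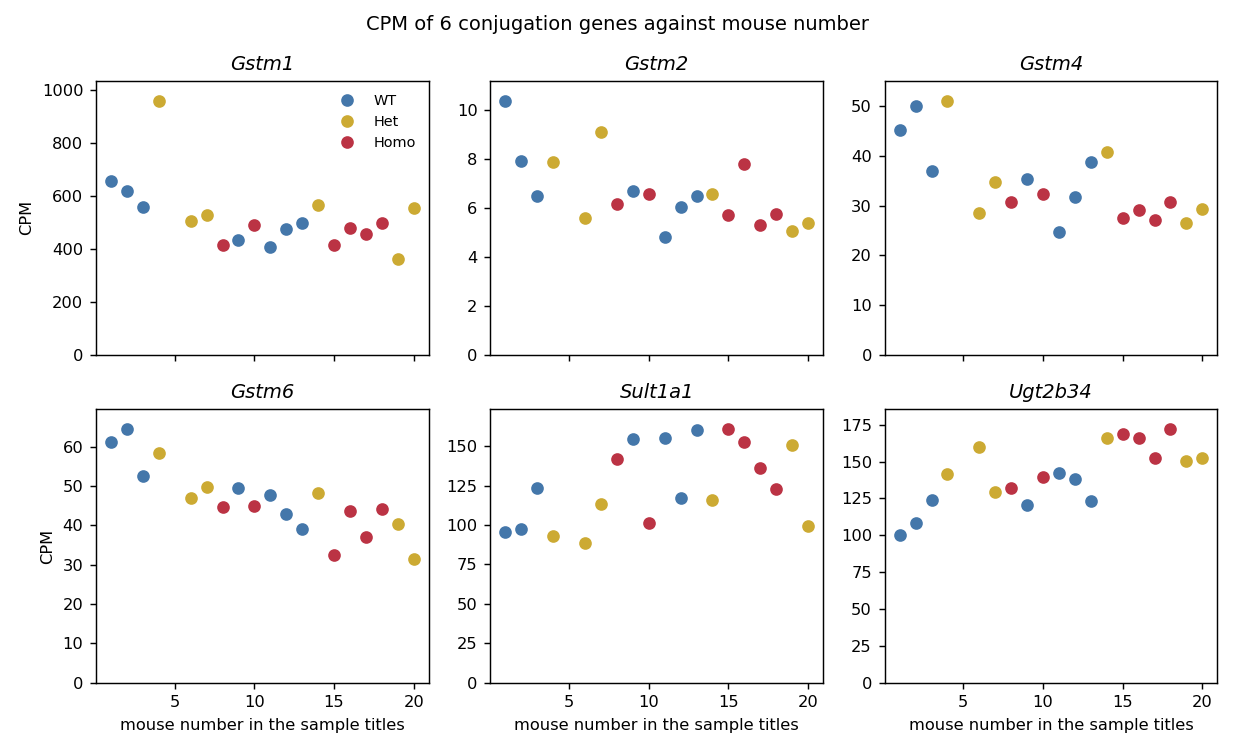
CPM (y axis, from 0) of 6 conjugation genes against the mouse number of the sample titles (x axis), coloured by genotype. Gstm6 lies between 52.6 and 64.4 CPM in mice 1 to 4, above all other mice, and Ugt2b34 is lowest, at 100.2 and 108 CPM, in mice 1 and 2.

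Genes that supply the donors, carry out other conjugations, export the products or regulate these enzymes gave 1 called gene. It was called in Homo against WT, where 0.48% of all tested rows passed. Of 16 tested genes of glutathione supply and turnover, 9 of UDP-glucuronic acid supply, 15 of PAPS and sulfate supply and 21 of other conjugations, 0 passed in any comparison by edgeR, as did 0 of 26 regulators. Within these lists the smallest p in Homo against WT belonged to Cth, an enzyme of cysteine synthesis (-0.29 ± 0.097, adjusted p = 0.207), Ugp2, which makes UDP-glucose (-0.29 ± 0.128, adjusted p = 0.352), Ethe1, a mitochondrial sulfur dioxygenase (-0.64 ± 0.149, adjusted p = 0.0608), Baat, which joins bile acids to taurine or glycine (-0.25 ± 0.067, adjusted p = 0.110), and Mafg, a partner of NRF2 (-0.25 ± 0.078, adjusted p = 0.167). Among 17 genes of conjugate export, Abcc6, an ABC transporter of the MRP family, fell by 0.27 on the log2 scale in Homo against WT (SE 0.058, adjusted p = 0.0428). Abcc6 ran from 224 to 248 CPM in WT, 204 to 272 in Het and 188 to 211 in Homo, so that every Homo mouse lay below every WT mouse. Groups of Homo and WT did not overlap for 0.911% of all tested rows. The call of Abcc6 held in 7 of 19 fits that each left out 1 library, with adjusted p from 0.011 to 0.103 over the 19, and not with the mouse number as a covariate (-0.20, adjusted p = 0.226). In the 6 supply, conjugation, export and regulator lists the medians of Homo against WT were -0.08, -0.13, -0.04, -0.04, 0.01 and 0.04, beside -0.05 for the 44 enzymes.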

How the data were processed

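RNA-seq read counts per gene from the livers of 19 mice were used as the authors deposited them, in 1 table of raw counts. Per the submitters' processing notes, reads were aligned to GRCm38 with STAR 2.7.2b and counted with featureCounts 1.6.4. Gene models, strandedness and the handling of multi-mapping or shared-exon reads were not given in the sources used here. Genotypes were taken from the labels.

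Rows kept by edgeR's filterByExpr (16463) were scaled by TMM and fitted over all 3 genotypes with edgeR's quasi-likelihood test (edgeR 4.0.16, R 4.3.3), with Benjamini-Hochberg adjustment over all tested rows and a threshold of 0.05. Log2 fold changes are edgeR's, with standard errors and 95% intervals, and log2 CPM used a prior count of 2. CPM are divided by the TMM-scaled library size. DESeq2 1.42.0, limma 3.58.1 (voom), other filters and scalings, the mouse number and leaving out libraries were alternatives. The scripts were tested on simulated data. Libraries of 1 genotype differed by a chi-square per degree of freedom of at least 23.2 over 51 pairs, so none was a repeat of another.

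The members and gene lists were chosen with earlier results of these data known. Named were the 5 members of smallest p in each comparison and for the mouse number, the 3 highest per kb in each of 6 families, the 5 of highest SD, called genes of each list, and from the lists of supply, conjugation, export and regulators the genes of smallest p in Homo against WT. Gsta1, Gsta4, Gstt1, Sult1e1, Sult2a1, Sult2b1, Sult3a1, the rows at 0, the remaining Ugt1a rows and the members that stood out in Het replicate 1 were chosen after their values were seen. Intervals on counts and floors cover counting error only.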

Additional observations from a re-analysis of the deposited data

Results flagged for a closer look

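Of 83 sets of values (1 gene in 1 genotype), 14 held a mouse far from the others of its genotype by Dixon's criterion, which chance gives in about 1 of 20 sets. The sets cover only the members named by rule, among them the 5 of highest SD. These 5 were picked for their spread, so the count of 14 cannot be set against that rate. Among glutathione transferases, Het replicate 1 was at 7.63 CPM of Gsta2 (next 3.90), 958 CPM of Gstm1 (next 568) and 3.94 CPM of Mgst3 (next 2.55). Het replicate 2 was at 186 CPM of Gstp1 (next 145), Homo replicate 1 at 50.4 CPM of Gstm7 (next 38.9), WT replicate 4 at 0.75 CPM of Gstp2 (next 0.389) and Homo replicate 4 at 4.37 CPM of Mgst3 (next 2.01). Mgst2, at 0 in the other mice of the group, was at 0.0299 CPM in WT replicate 7 and 0.0958 CPM in Homo replicate 6, which rests on very few counts. Among the Ugt genes, Het replicate 3 was at 224 CPM of Ugt1a1 (next 204), Het replicate 2 at 4.17 CPM of Ugt2b38 (next 1.83), and Het replicate 5 was lowest in Ugt2b5 at 96.8 CPM (next 113). Among sulfotransferases, WT replicate 3 was at 1.76 CPM of Sult2a7 (next 0.612) and Homo replicate 6 at 14.6 CPM of Sult5a1 (next 6.08).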

How the results depend on the processing

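No paired analysis was possible because the genotypes share no mouse number and the labels do not name the litter of a mouse. Of 886 fold changes recomputed under the alternatives, 848 kept their direction and side of the threshold. Members called in Homo against WT were 0, and 1 (Ugt2b34) by DESeq2 (0.34, adjusted p = 0.0139) or at an adjusted p under 0.10. In Homo against Het they were 0, and 1 by DESeq2 (Gstp1, -0.63, adjusted p = 0.0322) or without mice 1 to 3 (Sult2b1), with 0 to 1 when 1 library was left out (Sult2b1 without Homo replicate 4). For the mouse number, 1 member was called by edgeR, 7 by DESeq2, 2 with 1 CPM in 6 libraries, 6 at an adjusted p under 0.10, 0 without mice 1 to 3 and 3 within WT, with 1 to 5 when 1 library was left out (5 without Het replicate 2, 4 without Homo replicate 1). The shares of all rows called under these alternatives are not printed, so the member counts cannot be set against them. Signs turned for values that had not passed. With the mouse number as a covariate these were Gstm1 (0.0562) and Sult1a1 (-0.12) in Homo against WT, Gstm6 in Het against WT (0.00367) and Ugt2b34 in Homo against Het (-5.195e-05). Without mice 1 to 3 they were Gstm1 (0.0128), Sult1a1 (-0.12) and Gstm6 in Het against WT (0.0323). Among mice 8 to 13 they were Sult1a1 (-0.28) and Ugt2b5 (-0.0506) in Homo against WT. With 1 library left out, Gstm1 ran from -0.0476 to 0.26 in Het against WT, and in Homo against Het Gstm7 ran from -0.11 to 0.029 and Ugt2b37 from -0.36 to 0.12. The Ugt1a1 difference was 2.66, 1.44 and 1.22 CPM when the lowest Ugt1a row was subtracted, opposite in sign to the whole row. That alternative and the fits of Sult2b1 were chosen after seeing the data. In its calls Sult2b1 passed the filter only through the groups where it is present, so they are no support for a difference. Abcc6 lost its call with no filter (adjusted p = 0.0705), without mice 1 to 3 (0.277) and among mice 8 to 13 (0.733). The cause was not tested. Low counts limit Gstp2, Sult2a7, Ugt2b37 and the 20 untested rows.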
